A study of Mus musculus with 2 samples.

Results

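The genes described here are 10 members of the TGF-beta and activin signalling system: Tgfb1, Tgfb2, Tgfb3, Inhba, Tgfbr1, Tgfbr2, Tgfbr3, Acvr1, Ltbp1 and Tgfbi. They were chosen by name, though with earlier results of these data known. The symbol of each of the 10 was found among the 32285 genes of the deposited matrices. TGF-beta ligands are secreted in a latent form, held in the matrix by latent TGF-beta binding proteins such as Ltbp1, and act after release by integrins or proteases. A type II receptor (Tgfbr2) then joins a type I receptor (Tgfbr1), which phosphorylates SMAD proteins, and Tgfbr3, betaglycan, presents ligand to this pair. Inhba encodes the beta A subunit of activin A and of inhibin A, Acvr1 is the type I receptor ALK2, used mainly by bone morphogenetic proteins, and Tgfbi encodes a secreted matrix protein named for its induction by TGF-beta. Tgfbi and Ltbp1 are therefore neither ligands nor receptors. In pancreatic cancer the pathway is known both for restraining growth of the epithelium and for driving fibroblasts to make matrix, and the kinase TAK1 (Map3k7) is one of its branches that does not use SMADs.

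Single-cell RNA was sequenced from pancreatic tumours of KPPC mice, an engineered model of pancreatic ductal cancer, in 1 vehicle sample and 1 takinib sample. The vehicle group was KPPC mice 6 weeks old given vehicle for 14 days, and the takinib group was KPPC mice 6 weeks old given takinib, an inhibitor of TAK1, at 50 mg/kg for 14 days. Both groups carry the KPPC alleles, but the labels spell out neither these alleles nor the Cre driver nor the number of mice per library. With 1 library per group no difference below has a replicate check, no test was run, and the 95% intervals, given in square brackets, allow for counting error alone.

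After the same filters 9558 vehicle and 25183 takinib cells were kept, with medians of 3556 and 2887 UMIs (unique molecular identifiers, each standing for a captured transcript) per cell. They fell into 26 clusters, named from marker genes, and levels are given as CPM, the counts of a class pooled within a library and scaled to the same total. Among kept barcodes, 359 occurred in both libraries. The libraries differed in more than the drug. Vehicle held 1075 cells with Xist and no Y-linked transcript (called female vehicle cells), 3087 with Y-linked transcripts and no Xist (male vehicle cells) and 5228 with neither, while takinib held 0 Y-linked UMIs. The neutrophil transcripts S100a8 and S100a9 had a joint level of 93.4 CPM (vehicle) and 11154 CPM (takinib) in epithelial-like cells and of 306 and 7236 CPM in macrophage-like cells, and reached 8688 CPM in takinib fibroblast-like cells. The median share of mitochondrial UMIs was 8.70% and 1.79%. Male and female vehicle cells come from different mice. Treatment, library, software version, RNA quality, animal and sex cannot be told apart by this design.

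The labelled tissue was checked against defining markers. In epithelial-like cells the 10 epithelial markers had a joint level of 8532 CPM (vehicle) and 9124 CPM (takinib), and in fibroblast-like cells the 10 fibroblast markers one of 35911 and 22763 CPM. The 7 acinar markers, of the normal exocrine pancreas, reached at most 218 CPM in vehicle and 11.3 CPM in takinib over the epithelial-like, fibroblast-like and macrophage-like classes. In vehicle B-like and T-like cells they were at 357 and 347 CPM. Clusters whose acinar score came close to the epithelial one stayed unnamed and lie outside these classes. They were led by Tff2 (549 vehicle and 782 takinib cells) and S100g (0 and 74).

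The ligands were distributed over different classes of cells. Tgfb1, the main ligand of immune cells, was highest in macrophage-like cells in vehicle, at 275 CPM [268, 282], and in takinib in monocyte-like cells, at 329 CPM [313, 347], followed by macrophage-like cells at 239 CPM [235, 244]. Below macrophage-like cells in vehicle, fibroblast-like (195 CPM), perivascular-like (185 CPM), endothelial-like (170 CPM), dendritic-like (168 CPM) and epithelial-like cells (153 CPM) formed a series in which the counting intervals of neighbours overlapped. Because macrophage-like cells were numerous, they held 67.6% of all Tgfb1 UMIs in vehicle and 54.0% in takinib. Tgfb2 was a stromal transcript, at 165 CPM in perivascular-like, 72.6 CPM in fibroblast-like and 30.2 CPM in endothelial-like vehicle cells, with no overlap of the intervals, and at 0.555 CPM in macrophage-like cells. Tgfb3 was instead highest in fibroblast-like vehicle cells, at 169 CPM, ahead of perivascular-like cells at 85.5 CPM and epithelial-like cells at 26.4 CPM.

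**Figure D1:**
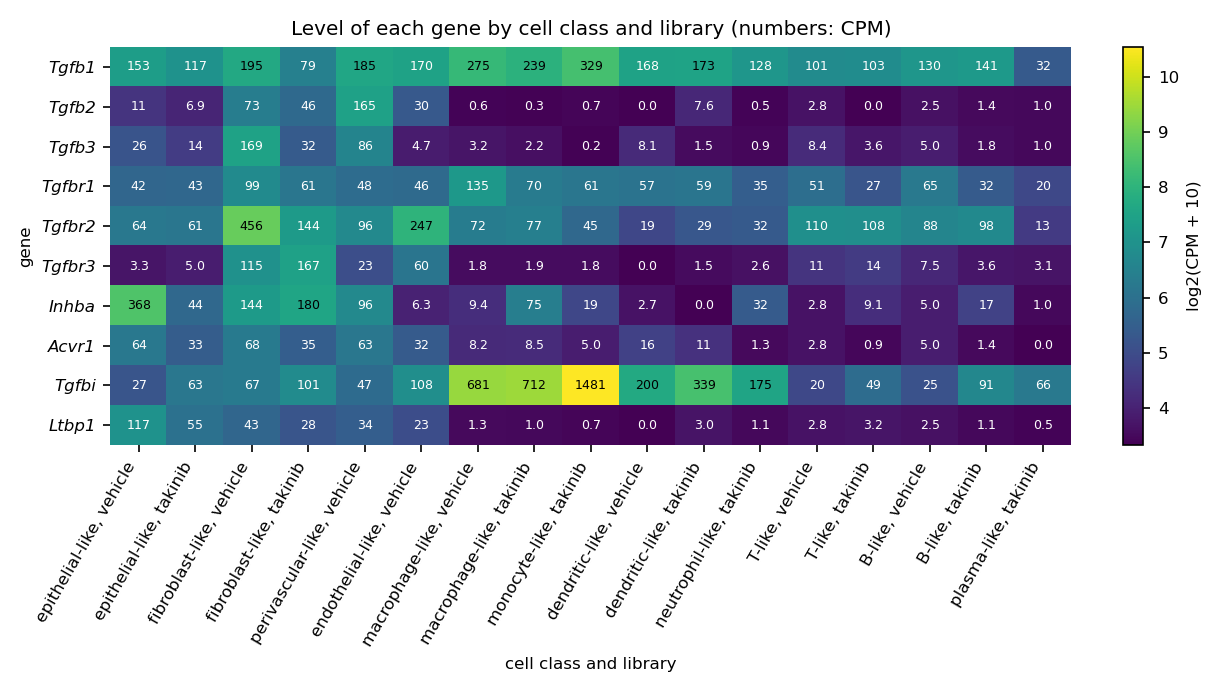
Level of the 10 genes (rows) in each cell class and library with at least 100 cells (columns). Colour is log2(CPM + 10) and the printed numbers are CPM; Tgfbi was highest in takinib monocyte-like cells at 1481 CPM, and Inhba in vehicle epithelial-like cells at 368 CPM.

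Inhba did not follow the TGF-beta ligands. In vehicle it was led by epithelial-like cells at 368 CPM [354, 381], then fibroblast-like cells at 144 CPM [130, 160] and perivascular-like cells at 96.1 CPM [83.8, 110], and macrophage-like cells stood at 9.39 CPM [8.14, 10.8]. In takinib the order was fibroblast-like cells at 180 CPM [166, 195], macrophage-like cells at 75.2 CPM [72.7, 77.8], epithelial-like cells at 43.8 CPM [40.0, 47.8] and neutrophil-like cells at 32.2 CPM [30.3, 34.3]. The order of the classes thus differed between the libraries. As shares of all Inhba UMIs, epithelial-like cells held 77.0% in vehicle and 8.29% in takinib, and macrophage-like cells 5.39% and 58.1%. Dendritic-like takinib cells had 0 counts of Inhba, which allows up to 4.56 CPM with 3 counts taken as the limit for a count of 0.

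Among the receptors, Tgfbr2 was highest in fibroblast-like cells in both libraries, at 456 CPM [431, 482] in vehicle and 144 CPM [132, 157] in takinib, and in vehicle endothelial-like cells came next at 247 CPM [225, 270]. The level of Tgfbr2 in T-like cells was 110 CPM (vehicle) and 108 CPM (takinib). Tgfbr1, its partner, was spread more evenly, from 41.8 CPM in epithelial-like to 135 CPM in macrophage-like vehicle cells. Tgfbr3 was a transcript of fibroblast-like cells (115 CPM in vehicle, 167 CPM in takinib) and of vehicle endothelial-like cells (60.5 CPM), and Acvr1 had overlapping intervals in vehicle fibroblast-like (67.8 CPM), epithelial-like (64.4 CPM) and perivascular-like cells (62.8 CPM). The latency protein gene Ltbp1 was highest in epithelial-like cells in both libraries, at 117 CPM and 54.8 CPM. Tgfbi was myeloid: takinib monocyte-like cells had 1481 CPM [1446, 1518], macrophage-like cells 681 CPM in vehicle and 712 CPM in takinib, and T-like cells 19.7 CPM and 48.8 CPM.

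Some of these low levels lay at or below that of free RNA. In vehicle barcodes of at most 100 UMIs, which hold mostly RNA outside cells, Tgfbi stood at 241 CPM, Tgfb1 at 173 CPM, Tgfbr1 at 106 CPM, Tgfbr2 between 72.9 and 122 CPM by its interval, Inhba at 53.7 CPM and Tgfb3 at 21.5 CPM. Vehicle values under these figures include Tgfbi in B-like and T-like cells, Inhba in macrophage-like cells and Tgfbr1 in epithelial-like cells. What part of them was free RNA was not tested. No such barcodes are listed for takinib, so its free RNA was not measured.

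For the treatment comparison a member was counted as higher or lower when the log2 of its takinib level over its vehicle level, after adding 10 CPM to both, was past 1 (2-fold) and it had at least 50 summed counts in a library. In epithelial-like cells all 10 members had enough counts, 0 were higher and 1 was lower, Inhba. Of all 11396 genes of that class, 2.88% were higher and 2.32% lower by the same rule. In fibroblast-like cells 0 of 10 were higher and 3 of 10 lower (Tgfb1, Tgfb3 and Tgfbr2), where 4.73% of 8021 genes were higher and 6.17% lower. In macrophage-like cells 1 of 8 was higher, Inhba, and 0 lower, where 1.86% of 11908 genes were higher and 1.18% lower. B-like cells had 1 of 4 higher (Tgfbi) and 0 lower, with 10.8% of 5757 genes higher and 2.81% lower. T-like cells had 0 of 4 in either direction, with 6.30% of 5191 genes higher and 1.79% lower, and dendritic-like cells 0 of 2, with 6.18% of 1828 genes higher and 2.68% lower. The median log2 ratio of the members was -0.59 (fibroblast-like), -0.35 (epithelial-like) and 0.01 (macrophage-like), beside -0.08, -0.09 and -0.01 over all genes.

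**Figure D2:**
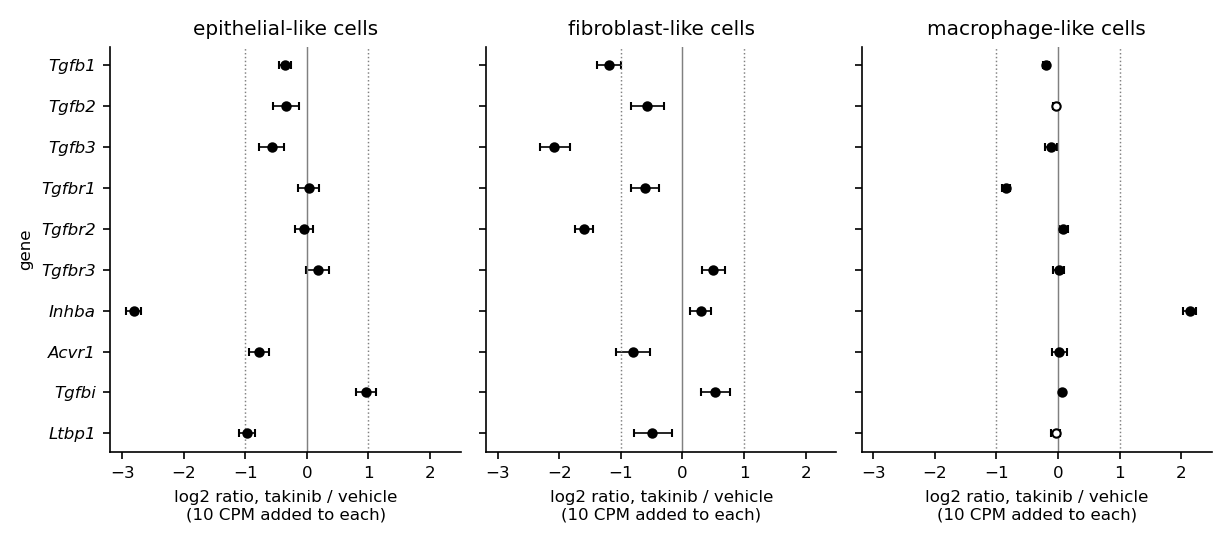
Log2 of takinib over vehicle level for each of the 10 genes (rows) in 3 cell classes, after adding 10 CPM to both. Bars are 95% counting intervals, dotted lines mark 2-fold, and open points are genes with under 50 counts in both libraries; Inhba lies at -2.81 among epithelial-like cells and at 2.14 among macrophage-like cells.

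The sequences just upstream of 3 of the members that passed the fold are shown because these genes differed most between classes or moved together in fibroblasts. They are the 100 bases before the annotated start, from RefSeq on GRCm38.p6, written 5′ to 3′ on the gene's strand. Capitals mark a TATAAA match in Inhba, GC boxes (GGGCGG, on either strand) in Tgfb1 and CCAAT boxes (CCAAT, on either strand) in Tgfbr2. The TATAAA of Inhba lies near the upstream end of its window and was not shown to be a TATA box.
Inhba, chr13:16011751-16011850, plus strand: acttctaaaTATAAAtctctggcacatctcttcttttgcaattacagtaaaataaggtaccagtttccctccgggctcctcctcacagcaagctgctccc
Tgfb1, chr7:25686902-25687001, plus strand: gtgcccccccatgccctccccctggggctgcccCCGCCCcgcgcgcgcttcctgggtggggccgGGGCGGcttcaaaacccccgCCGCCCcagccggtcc
Tgfbr2, chr9:116175364-116175463, minus strand: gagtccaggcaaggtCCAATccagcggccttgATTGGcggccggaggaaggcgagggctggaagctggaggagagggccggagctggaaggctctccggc
The Inhba window held 1 TATAAA, found in 5.56% of 32851 windows of the same length. The Tgfb1 window held 3 GC boxes, of which at least 1 is present in 24.7% of windows, and the Tgfbr2 window 2 CCAAT boxes, present in 18.9%. None of the 3 windows held an 8-base SMAD box (GTCTAGAC), found in 0.0457% of windows. Of the 10 members, 8 had an entry in the promoter table, and Tgfb3 and Tgfbr3 are named only.

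Inhba (chr13:16011851-16031621, plus strand, GRCm38) showed the largest difference of the 10 genes in epithelial-like cells. It had 2899 counts, 368 CPM, in vehicle and 486 counts, 43.8 CPM, in takinib, 8.40-fold lower [7.63, 9.26] at a log2 ratio of -2.81. Takinib lay below vehicle as a whole, but the vehicle cells were not alike. Male vehicle cells had 476 CPM [457, 497] over 591 cells and female vehicle cells 78.2 CPM [61.3, 98.3] over 136 cells, so that the log2 ratio of takinib was -3.18 against male cells and -0.71 against female cells. Female and male vehicle cells, which had the same treatment, differed from each other by -2.46. Takinib, which held no cells with Y-linked transcripts, was therefore within 2-fold of the vehicle cells of its own sex. It was still below them, since its interval [40.0, 47.8] did not overlap that of female vehicle cells. The male and female cells are also from different mice, so sex and animal cannot be told apart.

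The epithelial-like cluster led by Cdkn2a, the cell-cycle inhibitor gene, held most of this signal. It had 834 vehicle and 740 takinib cells. Within it Inhba was at 555 CPM [532, 579] in male vehicle cells, 333 CPM [305, 362] in vehicle cells with neither transcript, 78.4 CPM [60.9, 99.4] in female vehicle cells and 44.6 CPM [40.6, 48.8] in takinib. A few cells carried much of it: the 10 highest of 834 vehicle cells held 36.2% of the 2814 Inhba UMIs of the cluster, with up to 227 UMIs in a cell, and the 10 highest of 740 takinib cells held 54.6% of 465. The same share in vehicle was 11.2% for Acvr1, 12.0% for Tgfb1, 12.1% for Ltbp1 and 16.0% for Tgfbr2, and 33.0% for Tgfbi, 37.3% for Tgfb2 and 81.0% for Tgfbr3, of which 179, 83 and 21 UMIs were counted. Cells with at least 1 Inhba UMI were 38.7% of male vehicle, 31.2% of female vehicle and 16.5% of takinib cells, at median depths of 8248, 6151 and 11336 UMIs, so male and female vehicle cells stood closer in that share than in CPM. An unnamed cluster led by the gastric gene Tff2 had Inhba levels of 5.13 CPM (vehicle) and 6.98 CPM (takinib). When each library was clustered on its own the epithelial-like log2 ratio was -0.79, which ends the call. That class left out a vehicle cluster of 227 cells with Inhba and Cdkn2a among its leading genes, which stayed unnamed, so it did not hold the same cells. Without removal of doublets the ratio was -1.60.

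**Figure D3:**
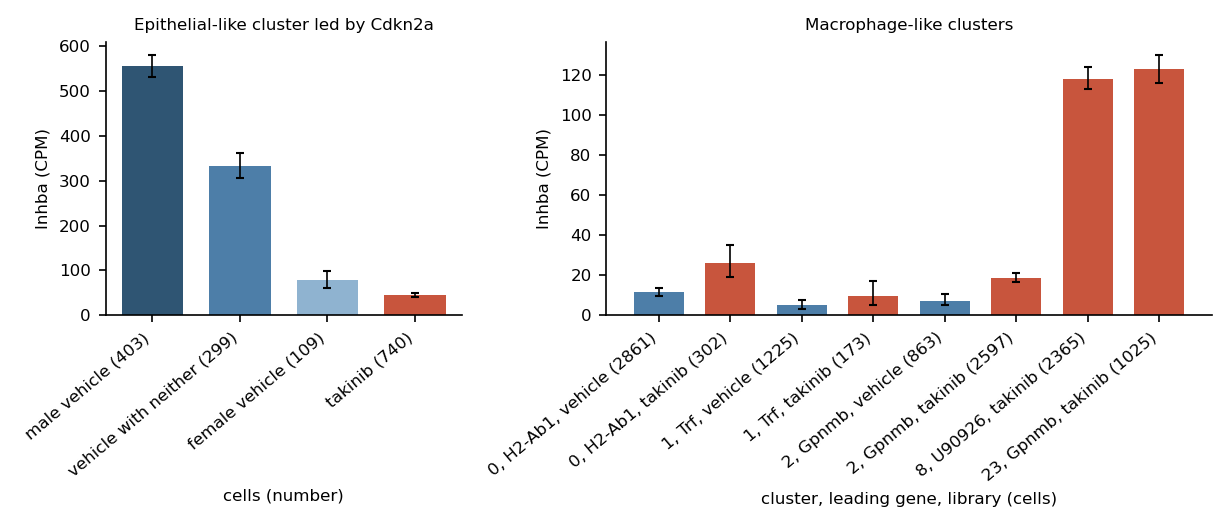
Inhba level in CPM with 95% Poisson intervals, at left in the Cdkn2a-led epithelial-like cluster by origin of the cells, at right in each macrophage-like cluster by library (blue vehicle, red takinib), with the number of cells in brackets. Male vehicle cells stand at 555 CPM against 78.4 CPM in female vehicle cells, and the macrophage-like clusters found almost only in takinib at 118 and 123 CPM.

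In macrophage-like cells Inhba went the other way. It had 203 counts in vehicle and 3405 in takinib, 9.39 and 75.2 CPM, 8.01-fold higher [6.95, 9.27] at a log2 ratio of 2.14. Female vehicle cells had 11.7 CPM and male vehicle cells 9.36 CPM, both far below takinib. After thinning each cell to 1000 UMIs, 0.645% [0.442, 0.909] of vehicle and 4.38% [3.89, 4.91] of takinib macrophage-like cells had an Inhba UMI (2.36% and 12.3% before thinning, at median depths of 3924 and 6193 UMIs), beside 0.457% and 1.05% of T-like cells (median depths 1362 and 1682 UMIs). The vehicle T-like share rests on 1 Inhba count, too few to set a background level. By CPM, vehicle T-like cells were at 2.82 and vehicle macrophage-like cells at 9.39, both under the 53.7 CPM of free RNA. What part of the macrophage-like level was background was not tested. The ratio of 8.01 therefore compares measured levels and is not a fold of expression. The neutrophil markers in the takinib class, 7917 CPM against 414 CPM in vehicle over 12 genes, moved with this result. Inhba was at 32.2 CPM in takinib neutrophil-like cells, and with a neutrophil profile subtracted the log2 ratio was 2.17. The part of free RNA in takinib was not tested.

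The Inhba level differed between macrophage-like clusters, which the libraries filled unequally. Of the macrophage-like cells of vehicle, 57.7% were in a cluster led by the MHC class II gene H2-Ab1, 24.7% in a cluster led by Trf and 17.4% in a cluster led by Gpnmb. Takinib macrophage-like cells were 40.2% in the same Gpnmb cluster, 36.6% in a cluster led by U90926 (2365 cells, 5 in vehicle) and 15.9% in a further cluster led by Gpnmb (1025 cells, 7 in vehicle). Inhba was at 118 CPM [113, 124] and 123 CPM [116, 130] in these last 2 clusters, each almost wholly from 1 library and so not shown to be a type of cell. In the 3 shared clusters takinib had 26.4, 9.80 and 18.9 CPM and vehicle 11.6, 5.29 and 7.44 CPM, in the order H2-Ab1, Trf and Gpnmb. Takinib was higher in each, and the intervals did not overlap in the H2-Ab1 and Gpnmb clusters. Female vehicle cells of the H2-Ab1 cluster had 22.4 CPM [12.6, 37.0] on 15 counts, which overlapped takinib. With takinib clusters weighted as in vehicle, over the 3 shared clusters alone, the class log2 ratio was 0.69, under 2-fold. That weighting left out the U90926 cluster and the further Gpnmb cluster. At a coarser clustering (Leiden resolution 0.5) the class log2 ratio was 0.70.

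The other members of macrophage-like cells did not pass the rule. Tgfb1 was at 275 CPM in vehicle and 239 CPM in takinib, Tgfbr2 at 72.0 and 76.8 CPM, and Acvr1 at 8.23 and 8.46 CPM. Tgfbr1 (chr4:47353222-47414931) was at 135 and 70.4 CPM, a log2 ratio of -0.85 [-0.91, -0.78]. Its level in the H2-Ab1 cluster was 174 CPM (vehicle) and 153 CPM (takinib), and that in the U90926 cluster was 45.4 CPM. With takinib clusters weighted as in vehicle, over the 3 shared clusters alone, its log2 ratio was -0.12. Cluster makeup and library cannot be told apart here. Tgfbi (chr13:56609523-56639562) was nearly level over the class but not within it: in takinib it was at 1013 CPM in the U90926 cluster and at 487 CPM in the Gpnmb cluster found almost only there, and in the shared Trf cluster at 633 CPM in vehicle and 976 CPM in takinib.

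Fibroblast-like cells had lower levels of 2 TGF-beta ligands and the type II receptor in takinib. Tgfb3 (chr12:86056745-86079041, minus strand), a ligand of mesenchymal cells, was at 169 CPM [154, 185] in vehicle and 32.4 CPM [26.7, 38.9] in takinib, 5.21-fold lower [4.24, 6.46]. Tgfbr2 (chr9:116084293-116175360, minus strand) was at 456 and 144 CPM, 3.17-fold lower [2.86, 3.52]. Tgfb1 (chr7:25687002-25705077, plus strand) was at 195 CPM [179, 212] and 79.3 CPM [70.3, 89.2], 2.46-fold lower [2.12, 2.85]. For these 3 genes takinib lay below female and male vehicle cells alike, with no overlap of the counting intervals. For Tgfb1 the vehicle level overlapped that of free RNA (173 CPM [143, 208]), and what part of it was free RNA was not tested. Tgfbi, at 241 CPM in free RNA, was at 66.7 CPM in vehicle fibroblast-like cells. Female and male vehicle cells had 183 and 172 CPM of Tgfb3, 477 and 415 CPM of Tgfbr2, and 288 and 171 CPM of Tgfb1. Neutrophil markers were at 236 CPM in vehicle and 9663 CPM in takinib fibroblast-like cells. Erythroid markers were at 10.4 and 727 CPM and macrophage markers at 1854 and 1169 CPM. The fibroblast markers themselves were at 35911 and 22763 CPM. The part of transcripts from other cells in these results was not tested beyond subtraction of the neutrophil profile. That step took away 6.38% of takinib UMIs and left all 3 calls. Tgfb3 lies across from Ttll5 and Gm48008 on the opposite strand, and the counting is not stated to have used strand.

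**Figure D4:**
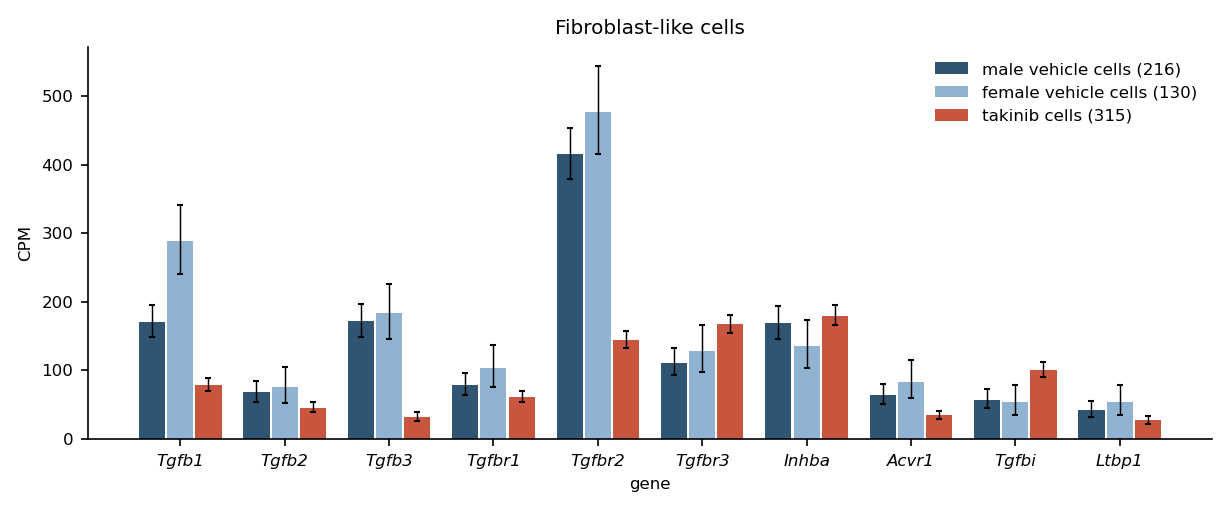
Level of the 10 genes in fibroblast-like cells in CPM, for male vehicle, female vehicle and takinib cells (number of cells in the key), with 95% Poisson intervals. The takinib bars are below those of both vehicle origins for Tgfb1, Tgfb3 and Tgfbr2, and above both for Tgfbr3 and Tgfbi.

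The remaining members of fibroblast-like cells did not pass the rule and did not share a direction. Tgfb2 (chr1:186622792-186705989) was at 72.6 and 45.8 CPM, Tgfbr1 at 98.9 and 61.4 CPM, Acvr1 (chr2:58388644-58567157) at 67.8 and 34.7 CPM and Ltbp1 (chr17:75005568-75392512) at 42.6 and 27.6 CPM. Tgfbr3 (chr5:107106570-107289629), Inhba and Tgfbi were above vehicle, at 115 and 167 CPM, 144 and 180 CPM, and 66.7 and 101 CPM. Inhba was thus lower in takinib epithelial-like cells, higher in macrophage-like cells and 1.25-fold higher [1.10, 1.42], short of 2-fold, in fibroblast-like cells. All 315 takinib and 641 vehicle fibroblast-like cells were in 1 cluster, led by Dcn. When each library was clustered on its own the takinib fibroblasts stayed unnamed and gave no value, and after thinning to 1000 UMIs a cell the log2 ratio of Tgfb1 was -0.93 in place of -1.20.

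In epithelial-like cells none of the members other than Inhba passed the rule, which adds 10 CPM to both sides, but Ltbp1 and Tgfbi lay near it. Ltbp1 was at 117 CPM in vehicle and 54.8 CPM in takinib, 2.13-fold lower [1.92, 2.37] as measured and -0.97 on the log2 scale with 10 CPM added. It passed in the Cdkn2a cluster alone (130 and 57.4 CPM, -1.06) and under 4 of 14 alternatives. Acvr1 was at 64.4 and 33.4 CPM, -0.78. Both were at similar levels in female vehicle cells (107 and 65.3 CPM) and male vehicle cells (129 and 71.0 CPM), above takinib. Tgfbi was at 27.4 and 62.8 CPM, 2.29-fold higher [1.96, 2.68] as measured, with a log2 ratio of 0.96 that ran from 0.55 to 2.32 over the alternatives; female vehicle cells had 7 counts of it, and against them the ratio was 2.06. Tgfbr1 was at 41.8 and 42.8 CPM, Tgfbr2 at 63.9 and 61.4 CPM and Tgfb1 at 153 and 117 CPM. Tgfbr2 was at 108 CPM in female and 57.3 CPM in male vehicle cells, a log2 difference of 0.81 within the vehicle library, beside -0.05 between the libraries.

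Lymphoid cells gave little to compare. In B-like cells Tgfbi had 10 counts among 208 vehicle cells and 253 counts (91.4 CPM) in takinib, a log2 ratio of 1.53 [0.83, 2.23]. Neutrophil-like takinib cells had 175 CPM of Tgfbi, and S100a8 and S100a9 were at 697 CPM in vehicle and 44255 CPM in takinib B-like cells. Subtraction of the neutrophil profile, 32.5% of takinib B-like UMIs, gave 0.80. Weighting the takinib clusters as in vehicle gave 0.87, over 1 cluster, which left out 561 of 1233 takinib B-like cells. The call thus ended under both. Tgfb1 and Tgfbr2 were near level in B-like cells (130 and 141 CPM, 87.5 and 97.9 CPM) and in T-like cells (101 and 103 CPM, 110 and 108 CPM). Tgfbr1 was at 65.0 and 31.8 CPM in B-like and at 50.7 and 27.3 CPM in T-like cells, 2.04-fold [1.27, 3.20] and 1.85-fold lower [1.03, 3.18] as measured, under 2-fold once 10 CPM is added, and under the vehicle free-RNA level.

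Around the members, 60 further genes of the pathway were counted in 7 lists: latency and activation, other ligands, other receptors, extracellular antagonists, SMADs and their regulators, response genes and the TAK1 branch. In fibroblast-like cells 45 had enough counts, of which 13 were lower and 2 higher past 2-fold, with a median log2 ratio of -0.56. Over all 8021 genes 6.17% were lower and 4.73% higher, with a median of -0.08. Against female vehicle cells 15 were lower, beside 655 of all genes, and against male vehicle cells 14, beside 479. Of 9 latency and activation genes 5 were lower. Ltbp2 was at 261 CPM in vehicle and 40.6 CPM in takinib, Ltbp4 at 285 and 59.7 CPM, and Ltbp3 at 214 and 97.8 CPM, a log2 ratio of -1.05 that was -0.89 against female vehicle cells. The microfibril gene Fbn1 was at 801 and 316 CPM, and Lrrc32, encoding the latent TGF-beta docking protein GARP, at 86.7 and 9.38 CPM.

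Of the other ligand genes of fibroblast-like cells both with enough counts were lower, and of 5 other receptor genes 1 was lower and 2 lay above 0. Inhbb, the activin beta B subunit, was at 92.6 CPM in vehicle and 25.9 CPM in takinib, and Bmp4 at 47.4 and 8.53 CPM, though with 7 counts in female vehicle cells, against which its log2 ratio was -0.43. Eng, the coreceptor endoglin, was at 141 and 17.9 CPM. Of 9 response genes 4 were lower and 1 was higher, and 3 lay above 0. Ccn2 was at 507 and 170 CPM, Cdkn2b at 109 and 23.6 CPM, Lrrc15, a marker of myofibroblastic cancer fibroblasts, at 70.4 and 16.2 CPM, and Postn at 786 and 114 CPM. Pmepa1, a feedback inhibitor induced by TGF-beta, was at 925 and 273 CPM, and Grem1, an antagonist of bone morphogenetic proteins, was higher, with 54 counts in vehicle and 244 (69.4 CPM) in takinib, a log2 ratio of 1.40. None of 3 TAK1 branch genes was past 2-fold.

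**Figure D5:**
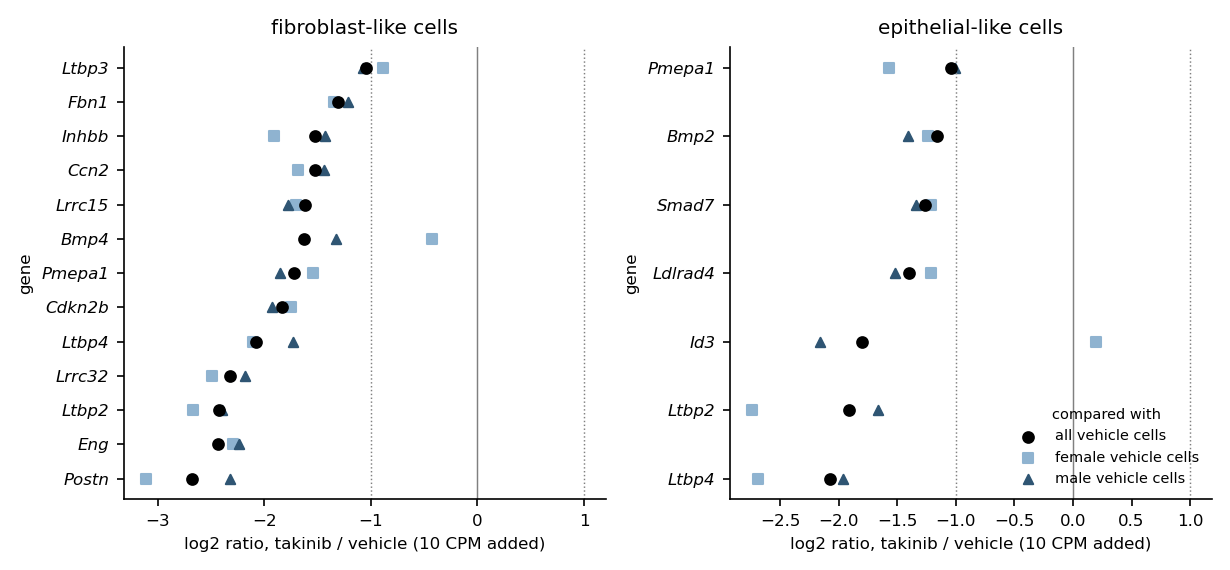
Log2 of takinib over vehicle level, after adding 10 CPM to both, for the pathway genes lower past 2-fold in fibroblast-like (left) and epithelial-like cells (right), against all vehicle cells (black), female vehicle cells (light squares) and male vehicle cells (dark triangles). Dotted lines mark 2-fold; Id3 in epithelial-like cells lies at 0.20 against female and at -2.16 against male vehicle cells.

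In epithelial-like cells 7 of 46 pathway genes were lower and 0 higher, beside 2.32% and 2.88% of all genes, with a median of -0.34 beside -0.09. Ltbp4 was at 203 and 40.5 CPM, Ltbp2 at 39.8 and 3.24 CPM, Bmp2 at 46.9 and 15.5 CPM, and Pmepa1 at 1040 and 501 CPM. Smad7, the inhibitory SMAD, was at 177 and 68.0 CPM, and Ldlrad4, which also limits SMAD signalling, at 32.2 and 5.94 CPM. These 6 were past 2-fold against female and against male vehicle cells. Id3, a target of bone morphogenetic protein signalling, was at 309 and 81.4 CPM but at 69.6 CPM in female vehicle cells. As a group these cells were low in Inhba too, and whether single cells were low in both was not tested. Against female vehicle cells 11 genes were lower and 1 higher, beside 391 and 450 of all 11396. Against male vehicle cells 8 were lower and 0 higher, beside 279 and 358. The comparison with all vehicle cells had 264 lower over all genes. The median log2 ratio of the 7 response genes was -0.53 against all vehicle cells and 0.13 against female vehicle cells. None of 5 TAK1 branch genes was past 2-fold.

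Macrophage-like cells had 1 of 45 pathway genes higher and 1 lower, a share near that of all genes (1.86% and 1.18%), so the values of both are given as a description. Fst, encoding follistatin, which binds and neutralises activin, was at 1.76 CPM in vehicle and 13.7 CPM in takinib, a log2 ratio of 1.01, beside the higher Inhba. Pmepa1 was at 199 and 79.6 CPM. With takinib clusters weighted as in vehicle, over the shared clusters alone, the log2 ratios were 0.37 for Fst and 0.15 for Pmepa1. Both were under 2-fold, and Pmepa1 went in the other direction. Against female vehicle cells the log2 ratios were 0.82 and -0.67, also under 2-fold. T-like cells had 1 of 18 lower (Pmepa1, 98.6 and 31.9 CPM), and dendritic-like cells 1 of 5 higher (Itgav, 21.7 and 94.2 CPM, on 8 vehicle counts). B-like cells had 4 of 19 higher (Id1, Id2, Tgif1 and Thbs1), beside 10.8% of all genes, of which 0 remained with clusters weighted as in vehicle.

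Genes whose levels ran most like each member were ranked by Pearson's r of log2(CPM + 10) over the 17 pairs of class and library with at least 100 cells. These points share 2 libraries, and classes of a library share its depth and free RNA. Inhba was most like Fst (r = 0.884), then Nupr1 and Serf1 (both 0.873). For the mesenchymal ligands, Tgfb3 was most like Thbs3 (0.986), Col6a2 (0.971) and Chpf (0.966), and Tgfb2 most like Dmpk (0.973), Mylk (0.968) and Fhl1 (0.963). Tgfbi was most like the myeloid surface genes Sirpa and Clec4a3 (both 0.941), and then Dpep2 (0.934). Ltbp1 was most like Sh3d19 and Map1b (both 0.977) and Cpe (0.971), Tgfbr3 most like Adamts5 (0.955), Adamtsl1 (0.947) and Slc43a3 (0.942), and Acvr1 most like Tmem132a (0.957), Dbn1 (0.955) and Pls3 (0.953). Values were lower for the broadly detected genes: Tgfb1 was most like Irf2bp2 (0.858), Epn1 (0.856) and Agps (0.840), Tgfbr1 most like Pla2g15 (0.882), Emc2 (0.848) and Rab3il1 (0.839), and Tgfbr2 most like Smarca2 and Tmem64 (both 0.844) and Clcn4 (0.827).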

How the data were processed

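The deposited files hold whole-number UMI counts for each gene in each barcode, made by the authors in Cell Ranger 4 (vehicle) and 6.1.1 (takinib) per the file headers. The submitters' processing notes name Cell Ranger 2.1.1 and build mm10. Takinib listed no barcode under 500 UMIs. Both libraries were filtered alike (at least 1000 UMIs and 500 genes, at most 20% mitochondrial UMIs). Scrublet removed 314 vehicle doublets by its automatic threshold; in takinib that threshold marked 0.00373%, so the highest 6% of scores were removed (1607). Cells were clustered together with scanpy 1.11.5 (2000 variable genes without the members and pathway genes, 30 components, 15 neighbours, Leiden resolution 1). A cluster took the class whose markers scored highest and needed 3 detected markers. Clusters with a runner-up at 0.75 of the best score, or with more markers of another class among the 10 leading genes, stayed unnamed. A further depth rule left no cluster unnamed. The unnamed clusters held 803 vehicle and 1431 takinib cells.

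Counts were summed per class and library and scaled to CPM; 6 classes had at least 100 cells in each library. Intervals are exact Poisson for CPM, exact Clopper-Pearson for shares and exact conditional Clopper-Pearson for ratios. The ratio and its interval were tested on simulated data. Adding 10 CPM shrinks the ratios of low genes. Weighting of takinib clusters as in vehicle used only clusters with at least 50 cells in each library and left out the others. All members, pathway genes past 2-fold (except 1, which is not reported here) and the 3 most alike genes per member are named. The members and lists were chosen with earlier results of these data known. Coordinates are from GENCODE M21 (GRCm38). Tgfb2 and Inhba also have counted genes on the opposite strand (Gm29491 and Gm48444).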

Additional observations from a re-analysis of the deposited data

Results flagged for a closer look

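Inhba was flagged because its log2 ratio of takinib to vehicle had opposite directions in 2 cell classes, -2.81 in epithelial-like cells and 2.14 in macrophage-like cells. The difference between the classes was not tested, since each class has 1 library per group. Against female vehicle cells the epithelial-like value was -0.71 and the macrophage-like value 1.97, still opposite in direction.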

How the results depend on the processing

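Calls were recomputed under 15 alternatives. The count of members higher in takinib, 2 over all classes, was 4 with 1 CPM added, 1 with each library clustered on its own, 1 with the neutrophil profile subtracted and 0 with takinib clusters weighted as in vehicle. The count of members lower, 4, was 7 with at least 2000 UMIs and 1000 genes and 0 with each library clustered on its own, where takinib fibroblasts stayed unnamed. The other alternatives kept these counts within 1.5 times, and no called ratio changed sign. Tgfb3 and Tgfbr2 in fibroblast-like cells were past 2-fold under all 14 alternatives that gave a value (-2.35 to -1.57 and -1.66 to -1.20). Comparisons of the pathway genes by origin or cluster makeup, and of origins within the Cdkn2a cluster, were chosen after seeing the data. No paired analysis was possible because each group has 1 sample. Levels of a few CPM, as of Tgfb2 in immune cells, were limited by depth.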
